A study of Mus musculus with 6 samples.

Results

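The uncoupling proteins Ucp1, Ucp2 and Ucp3 were followed in cardiomyocytes, which carry out contraction in the heart, from wild-type and TFEB-/- mice. They are 3 of the 46450 gene symbols in the deposited expression table, and 2 of the 3, Ucp2 and Ucp3, were among the 12437 genes that were abundant enough to test. Ucp2 was picked on its measured rise in TFEB-/- libraries, so its difference between the genotypes is given as a description with no test, and Ucp3 and Ucp1 were added as its relatives. Messenger RNA was sequenced in 6 libraries of heart cardiomyocytes from C57BL/6 mice aged 3 months, 3 wild type and 3 TFEB-/-. TFEB is a basic helix-loop-helix transcription factor that activates lysosomal and autophagy genes. No treatment is named for either group. How the Tfeb allele was made, in which cells it is lost, the sex of the mice and whether the libraries stem from different animals are not stated, so p-values measure the spread between these libraries. The comparison asks how cardiomyocyte transcripts differ with the loss of TFEB, and the study's title names lipid metabolism and cell death.

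Uncoupling proteins are carriers of the mitochondrial inner membrane. Ucp1 lets protons flow back into the matrix without making ATP and so produces heat in brown fat. Ucp2 is widely expressed, also in immune cells and many other tissues, and has been linked to the export of metabolites such as malate and aspartate and to the release of reactive oxygen species. Ucp3 is found mainly in skeletal muscle, heart and brown fat and is known as a target of the PPAR fatty acid receptors. Proton transport by Ucp2 and Ucp3 in living heart is debated, and the abundance of their proteins often does not follow that of their transcripts.

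Ucp3 and Ucp2 lie next to each other on mouse chromosome 7 (GRCm38), on the same strand. Ucp3 (ENSMUSG00000032942) spans 100472990 to 100486432 and Ucp2 (ENSMUSG00000033685) spans 100493337 to 100502020, with 6904 bp between the end of one and the start of the other. Ucp1 (ENSMUSG00000031710) lies apart on chromosome 8, from 83290352 to 83298452. The sequences of the 250 bases before the RefSeq start of Ucp2 and Ucp3 (GRCm38.p6, plus strand, chr7:100493108-100493357 and chr7:100472741-100472990) are shown because these adjacent promoters sit before transcripts with unlike levels in the 2 genotypes. Capitals mark AGGTCA, the half-site of nuclear receptors such as PPARs, and GGGCGG, the core of GC boxes, each on either strand.
Ucp2 promoter: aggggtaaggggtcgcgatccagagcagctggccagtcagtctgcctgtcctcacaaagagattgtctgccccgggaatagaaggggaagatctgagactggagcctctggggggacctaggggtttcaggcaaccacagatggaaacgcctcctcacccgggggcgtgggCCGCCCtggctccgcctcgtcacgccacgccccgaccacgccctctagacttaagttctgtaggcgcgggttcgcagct
Ucp3 promoter: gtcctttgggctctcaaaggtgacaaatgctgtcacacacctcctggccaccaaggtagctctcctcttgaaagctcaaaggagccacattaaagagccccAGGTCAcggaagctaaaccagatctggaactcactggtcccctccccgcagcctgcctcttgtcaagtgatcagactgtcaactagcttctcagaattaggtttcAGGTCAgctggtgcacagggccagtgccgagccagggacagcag

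The promoters had unlike base composition. G and C made up 63.6% of the Ucp2 window, which held 16 CG dinucleotides, and 54.8% of the Ucp3 window, which held 3. The median of 32841 RefSeq mouse promoter windows of this length was 52.4% with 6 CG dinucleotides, and 74.6% of them held fewer CG than the Ucp2 window. The letters CACGTG, the E-box core bound by TFEB and many other factors, were absent from the windows of Ucp1, Ucp2 and Ucp3 and present in 6.02% of all windows. TCACGTGA, an extended form that contains it, was also absent from the 3 windows and present in 0.786% of all. AGGTCA occurred at 2 places in the Ucp3 window, at 1 place in that of Ucp1 and not in that of Ucp2, against 14.0% of all windows with at least 1 match. A pair of AGGTCA spaced by 1 base was in none of the 3 windows and in 0.033% of all. GGGCGG occurred once in the Ucp2 window, and 32.7% of all windows held it. The looser E-box CANNTG, which includes CACGTG, matched at 2 places before Ucp2 and 3 before Ucp3, 1 of which overlaps an AGGTCA, and was in 66.2% of all windows. TATAAA was in none of the 3 windows and in 12.4% of all. A match of letters is not a binding site, and these windows do not cover distant elements.

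Library sums ran from 999505 to 999655, and the whole-number values were read as CPM, reads scaled to a common library total, rounded to 1 CPM. Transcripts of the mitochondrial genome made up 30.7%, 33.9% and 44.6% of the sum in wild-type libraries 1 to 3 and 22.2%, 30.3% and 25.3% in TFEB-/- libraries 1 to 3. With these transcripts left out of the sum, Ucp3 had a log2 fold change of -0.91. Among 73 other genes named and refitted below, Lpl, Cd36, Acot2, Plin5, Mlycd, Ppargc1a, Cldn5 and Pck2 gained a call. Slc1a5, Pdgfra, Clic1, Sirt4 and Atoh8 lost theirs. Over all tested genes the median log2 fold change was 0.24 as deposited and 0.01 after median-ratio scaling. This scaling divides each library by the median ratio of its genes to their geometric means over the libraries. In the fit across all tested genes (limma, adjusted p below 0.05), 3.92% were higher and 0.523% lower in TFEB-/- libraries, 487 and 65 genes, which became 481 and 200 with median-ratio scaling. Groups did not overlap for 21.2% of tested genes with TFEB-/- above and for 2.28% with TFEB-/- below. All 8 cardiomyocyte markers were detected, led by Myh6, the main heavy chain of adult mouse heart muscle, with 18996 to 28979 CPM in wild-type and 21323 to 33390 CPM in TFEB-/- libraries. Tfeb itself (ENSMUSG00000023990) was at 17, 30 and 23 CPM in wild-type libraries 1 to 3 and at 6, 5 and 7 CPM in TFEB-/- libraries 1 to 3. All TFEB-/- values lay below all wild-type values, with a log2 fold change of -1.85 ± 0.24 (SE; limma adjusted p = 0.0267). The Tfeb call was lost without any 1 library other than wild type 1, at adjusted p from 0.0589 to 0.109, while its direction held. Which bases of the gene are missing is not stated.

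Ucp2 was far more abundant in TFEB-/- cardiomyocytes than in wild type. It was at 24, 49 and 21 CPM in wild-type libraries 1 to 3 and at 395, 358 and 275 CPM in TFEB-/- libraries 1 to 3. The lowest TFEB-/- library was far above the highest wild-type library, wild type 2, and the groups did not overlap. The means were 31.3 ± 15.4 CPM in wild-type libraries and 343 ± 61.5 CPM in TFEB-/- (SD, n = 3 each). The fitted log2 fold change on the log2(CPM + 0.5) scale was 3.52 ± 0.37 (SE), or 3.28 relative to the median of all tested genes. Because Ucp2 was picked on this contrast, the share of genes called higher is not a background for it. In bulk RNA a change in the number of cells of a type cannot be told apart from a change in RNA per cell.

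**Figure D1:**
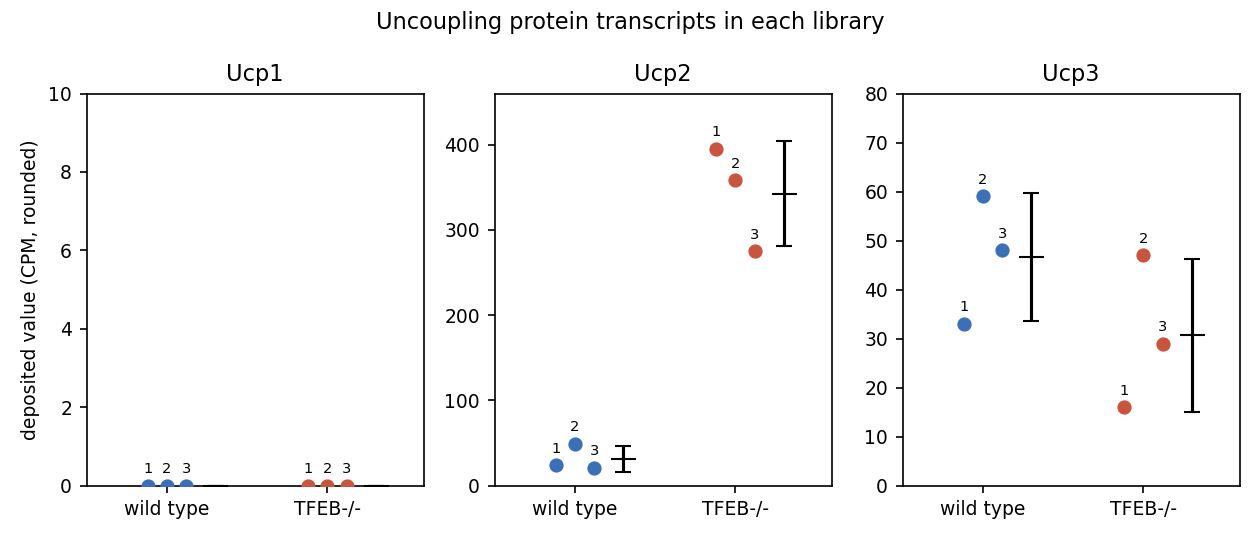
Deposited values of Ucp1, Ucp2 and Ucp3 in rounded CPM (vertical axis, a scale of its own in each panel) in 3 wild-type (blue) and 3 TFEB-/- (red) libraries, numbered by replicate. Bars are the mean and SD. Ucp1 is at 0 in every library, the 3 TFEB-/- points of Ucp2 sit at 275 to 395 above wild-type points at 21 to 49, and the groups of Ucp3 overlap.

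The place of Ucp2 among the transcripts of a library moved with it. By deposited value it ranked 3806, 1933 and 3510 among all 46450 gene symbols in wild-type libraries 1 to 3. In TFEB-/- libraries 1 to 3 it ranked 286, 273 and 393. In wild type it thus lay above 68.5% to 84.1% of tested genes, and in TFEB-/- above 96.8% to 97.8%. Its log2 fold change was the fourth highest of all 12437 tested genes. Ucp2 was picked for this rise, so its ranks are a description. Ucp2 also varied within groups, with a residual SD of 0.50 on the log2 scale that exceeded those of 95.4% of the 8585 tested genes whose mean reached 5 CPM. Across 15 alternative fits its log2 fold change ran from 3.28 to 3.89, the lowest with median-ratio scaling or without wild type 3 and the highest without wild type 2, the wild-type library with the most Ucp2.

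Ucp3 did not follow Ucp2. It was at 33, 59 and 48 CPM in wild-type libraries 1 to 3 and at 16, 47 and 29 CPM in TFEB-/- libraries 1 to 3. The ranges overlapped: TFEB-/- 1 and 3 lay below all wild-type libraries and TFEB-/- 2 lay between them. The means were 46.7 ± 13.1 CPM and 30.7 ± 15.6 CPM (SD, n = 3 each). The log2 fold change was -0.69 ± 0.46 (SE), and limma did not call it (adjusted p = 0.402), where 0.523% of tested genes were called lower. The 95% interval of the fold ran from 0.273 to 1.41, so the data leave room for a clear decrease as well as for a modest increase. Relative to the median of all tested genes the value was -0.92, and 1.86% of tested genes had a lower log2 fold change. Its residual SD of 0.62 exceeded those of 97.7% of tested genes whose mean reached 5 CPM. It stayed below 0 and uncalled in all 15 alternatives, from -1.06 without TFEB-/- 2 to -0.29 without TFEB-/- 1, so single libraries moved it by over 1.5 times.

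Ucp1, the brown fat member, was listed at 0 in all 6 libraries and was not tested. At a rounding of 1 CPM this allows values below 0.5 CPM. In every library Ucp1 stood below both Ucp2 and Ucp3, the lowest of which was 16 CPM for Ucp3 in TFEB-/- 1.

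**Figure D2:**
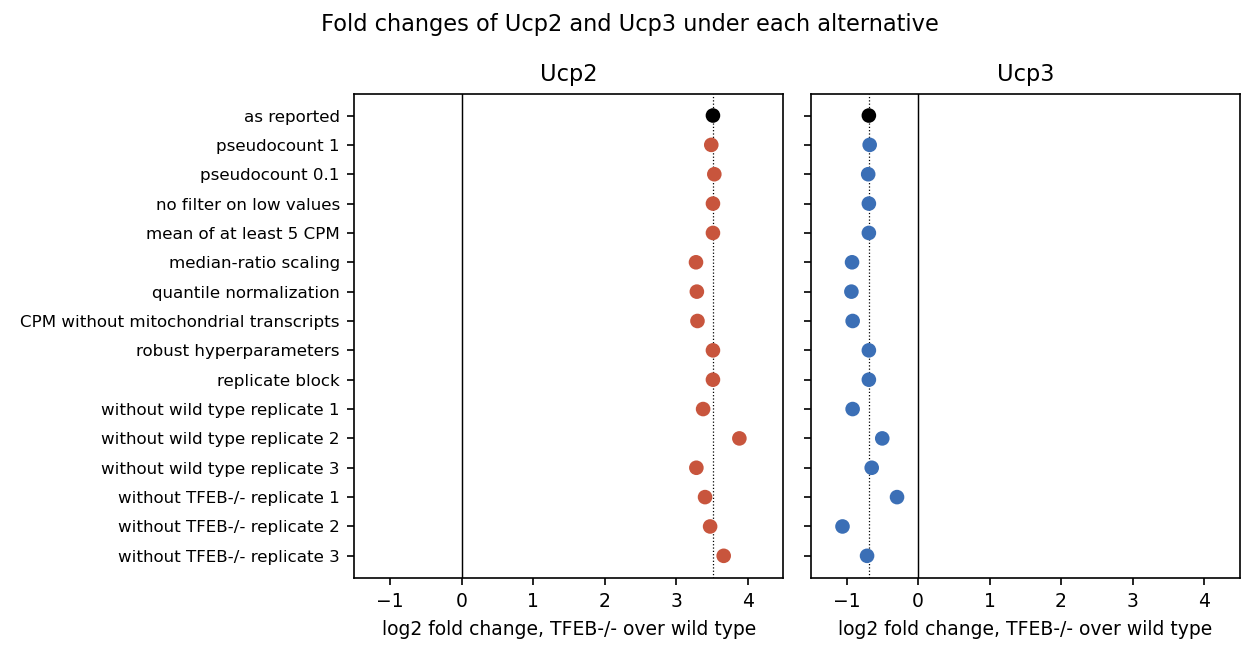
Log2 fold changes (TFEB-/- over wild type, horizontal axis) of Ucp2 (left) and Ucp3 (right) in the reported fit (black) and in 15 alternative fits (coloured), 1 row for each. All Ucp2 points lie between 3.28 and 3.89 and all Ucp3 points between -1.06 and -0.29.

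The balance between the neighbouring genes was unlike in the 2 genotypes. As deposited, Ucp2 gave 42.1%, 45.4% and 30.4% of the sum of Ucp2 and Ucp3 in wild-type libraries 1 to 3. It gave 96.1%, 88.4% and 90.5% of that sum in TFEB-/- libraries 1 to 3. The sum itself was 57, 108 and 69 CPM in wild-type libraries and 411, 405 and 304 CPM in TFEB-/-. Ucp3 was thus the higher deposited value in each wild-type library and Ucp2 in each TFEB-/- library. These shares carry the rise that chose Ucp2 and are a description.

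Levels of different genes can be set side by side only per transcript length, and whether the deposited values were already scaled by length is not stated. Divided by the longest coding transcript in GENCODE M21, 3988 bases for Ucp2 and 2448 for Ucp3, the level of Ucp2 was 6.02, 12.3 and 5.27 CPM per kb in wild-type libraries 1 to 3. The level of Ucp3 on that scale was 13.5, 24.1 and 19.6 CPM per kb in the same libraries. In TFEB-/- libraries 1 to 3 the level of Ucp2 was 99.0, 89.8 and 69.0 CPM per kb and that of Ucp3 6.54, 19.2 and 11.8 CPM per kb. The share of Ucp2 on this scale averaged 28.6% in wild type and 87.2% in TFEB-/-. The order in wild type rests on the length used: with the median length over the annotated transcripts, 0.67 kb for Ucp2 and 1.872 kb for Ucp3, the wild-type share was 64.0% and the TFEB-/- share 96.8%. The order in TFEB-/-, Ucp2 above Ucp3, was the same on each scale. The lengths were chosen after the values were seen, and which transcripts the cells use was not measured here.

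**Figure D3:**
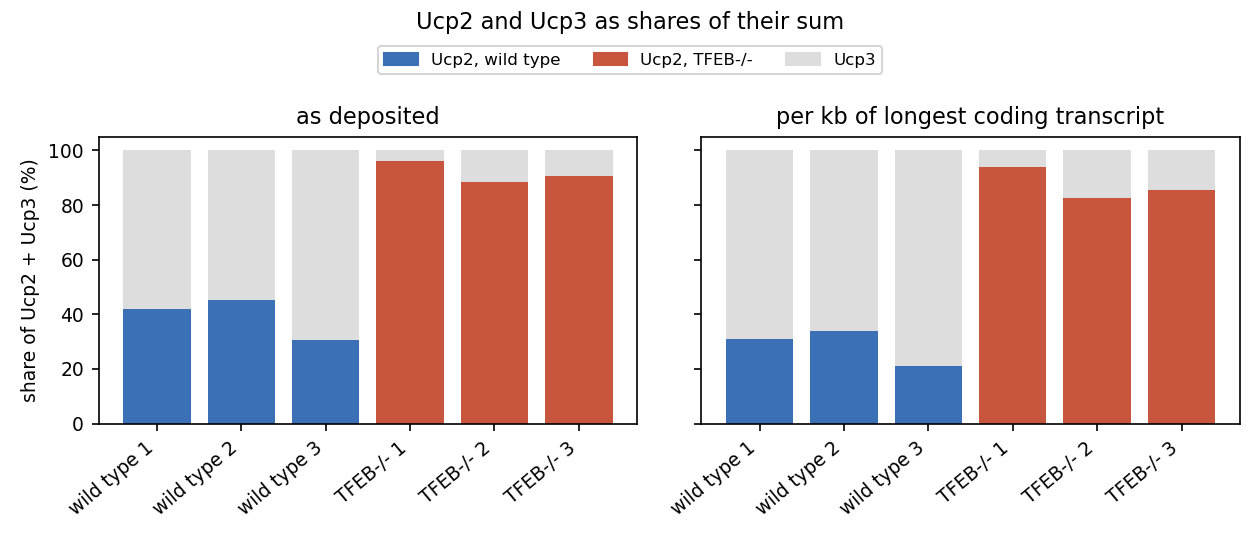
Share of Ucp2 (blue in wild type, red in TFEB-/-) and Ucp3 (grey) in the sum of both, in percent (vertical axis), for each library, with values as deposited (left) and per kb of the longest coding transcript (right). As deposited, Ucp2 takes 30.4% to 45.4% in wild type and 88.4% to 96.1% in TFEB-/-.

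The transcripts of the 3 genes share no run as long as a read. The longest open reading frames were 924 bases for Ucp1, 930 for Ucp2 and 927 for Ucp3. Aligned bases of Ucp2 and Ucp3 were identical at 75.9%, against 65.7% for Ucp1 with Ucp2 and 66.2% for Ucp1 with Ucp3. The longest run shared exactly by any Ucp2 and Ucp3 transcript was 24 bases, shorter than the reads of 75 bases, and no run of 31 bases was shared by any pair. Annotated genes on the opposite strand touch both genes. Dnajb13, a cochaperone gene on the minus strand that overlaps the end of Ucp2 by 305 bp, was at 0, 0 and 0 CPM in wild-type libraries and 1, 0 and 0 CPM in TFEB-/-. The antisense gene Gm10603, which overlaps Ucp3 by 1857 bp, was listed at 0 in all libraries. The library kit keeps strand, but whether strand was used in quantification is not stated.

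Genes around Ucp2 and Ucp3 showed no difference of comparable size. Within 500 kb on either side, 26 other annotated genes were in the table, of which 8 were listed at 0 in all libraries and 14 were tested. None of the 14 was called higher or lower by limma, where 3.92% of all tested genes were called higher and 0.523% lower. An unadjusted p below 0.05 was found for 2 of the 14, where 23.3% of all tested genes had one. With a filter of a mean of at least 5 CPM or with robust hyperparameters, 1 of them, Arhgef17, was called. Their log2 fold changes ran from 0 to 0.96 with a median of 0.22, close to the 0.24 of all tested genes. C2cd3, a centriole gene that ends 2838 bp before Ucp3 starts, was at 7, 5 and 4 CPM in wild-type libraries and 8, 6 and 8 CPM in TFEB-/- (log2 fold change 0.45, adjusted p = 0.290). Coa4, an assembly factor of mitochondrial complex IV 35051 bp away on the far side of Ucp2, was at 6, 6 and 7 CPM and at 7, 7 and 9 CPM. Both genes overlapped between genotypes, as did most of the window.

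Arhgef17 was at 63, 57 and 40 CPM in wild-type libraries and 128, 80 and 82 CPM in TFEB-/- (log2 fold change 0.84, adjusted p = 0.161). P2ry2, a receptor for ATP and UTP, was at 29, 29 and 31 CPM and at 39, 33 and 45 CPM (0.38, adjusted p = 0.172). The groups did not overlap for these 2 genes, where 21.2% of all tested genes had TFEB-/- above without overlap. Relt, a member of the TNF receptor family, was at 8, 4 and 3 CPM and at 13, 8 and 8 CPM (0.96, adjusted p = 0.236), and its groups met at 8 CPM. The log2 fold changes of Ppme1, a demethylase of protein phosphatase subunits, Mrpl48, a protein of the mitochondrial ribosome, Rab6a, a GTPase of the Golgi, and Fam168a were 0.21, 0.12, 0.00 and 0.23. Those of Rnf169, an E3 ligase of the DNA damage response, and Pold3, a subunit of DNA polymerase delta, were 0.18 and 0.38. None of these 6 was called, and median-ratio scaling turned the small differences of Rnf169, Ppme1, Mrpl48, Rab6a and Fam168a below 0.

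**Figure D4:**
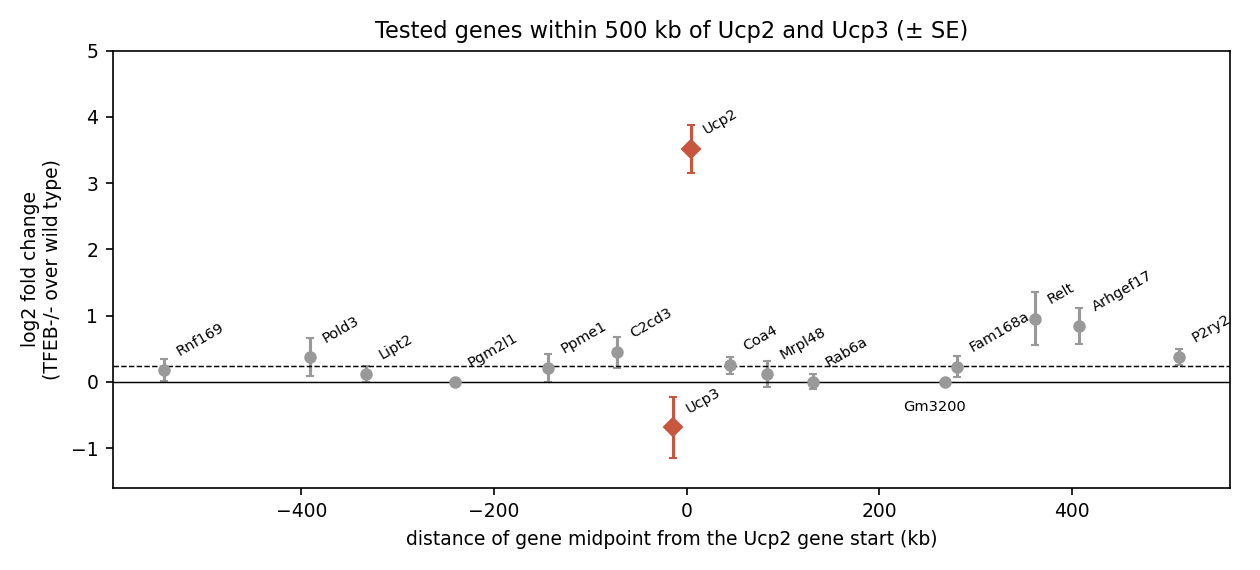
Log2 fold change (TFEB-/- over wild type, vertical axis) with SE of the tested genes within 500 kb, by distance of the gene midpoint from the Ucp2 start in kb (horizontal axis). Ucp2 stands at 3.52 and Ucp3 at -0.69 (red diamonds), the other 14 genes (grey) lie between 0 and 0.96, and the dashed line is the median of all tested genes, 0.24.

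The genes whose pattern over the 6 libraries was most like that of Ucp2 had a like profile over libraries at a much smaller scale. Pearson's r was computed on log2(CPM + 0.5) against 8584 genes whose mean reached 5 CPM, and these values are descriptive since the points share libraries and 2 groups. Clic1, an intracellular chloride channel protein, had r = 0.998, with 13, 15 and 12 CPM in wild-type libraries and 23, 22 and 21 CPM in TFEB-/-. Sirt4, a mitochondrial sirtuin, had 8, 9 and 8 CPM and 12, 12 and 12 CPM. Atoh8, a basic helix-loop-helix factor, Slc50a1, a sugar transporter, and the processed pseudogene Gm10443, which may share reads with its parent gene, completed the first 5. Their log2 fold changes were 0.71, 0.50, 0.51, 0.47 and 0.73, against 3.52 for Ucp2 and a median of 0.24 over all tested genes. With median-ratio scaling they were 0.47, 0.27, 0.29, 0.24 and 0.50, against 3.28 for Ucp2. Clic1, Sirt4, Atoh8 and Gm10443 were called higher as deposited, and none of the 5 was called with median-ratio scaling. These genes were chosen for their likeness to Ucp2, so their fold changes and calls are a description as well.

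Ucp3 was most like genes that were lowest in TFEB-/- 1 and highest, in part with ties, in wild type 2. Dpysl2, a microtubule-binding protein of the collapsin response family, had r = 0.98 with 5, 6 and 6 CPM in wild-type libraries and 4, 6 and 5 CPM in TFEB-/-. Coq10b, a mitochondrial protein that binds coenzyme Q, had r = 0.98 with 28, 36 and 32 CPM and 21, 33 and 24 CPM. Plpp1, a lipid phosphatase, had r = 0.97 with 28, 33 and 29 CPM and 20, 28 and 25 CPM. Ap3m1, a subunit of the AP-3 adaptor, and St3gal6, a sialyltransferase, both had r = 0.96. Ucp2 and Ucp3 themselves had r = -0.51 over the 6 libraries.

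Genes that act with the uncoupling proteins were followed in 8 lists with 147 genes in the table, of which 138 were tested. In these lists 3 genes rose, Gpx1, Me2 and Slc1a5, and 1 fell, Acot1, where 3.92% of all tested genes were called higher and 0.523% lower. With median-ratio scaling the counts were 3 and 7 of the 138, where 481 and 200 of the 12437 tested genes were called. With a filter of a mean of at least 5 CPM they were 7 and 4, where 584 and 60 of all genes passing that filter were called. Of the tested genes 8585 had such a mean, and some of the 138 list genes did not. The genes below that are not called are given with values only. Those named in the pathway and marker lists beyond the abundant and the called members (Slc25a14, Slc25a27, Slc25a30, Slc25a10, Ppara, Ppard, Pparg, Ppargc1a, Pdk4, Cpt1b, Acot2, Cd36, Plin5, Plin2, Mlycd, Gsr, Pck2, Pcx, Cidea, Cox8b, Acta2 and Cldn5) were chosen after their values were seen. The same holds for Srebf1, Srebf2, Foxo3, Sod1, Prdx3, Prdx5, Glrx2, Gclm, Hmox1, Keap1 and Nqo1.

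**Figure D5:**
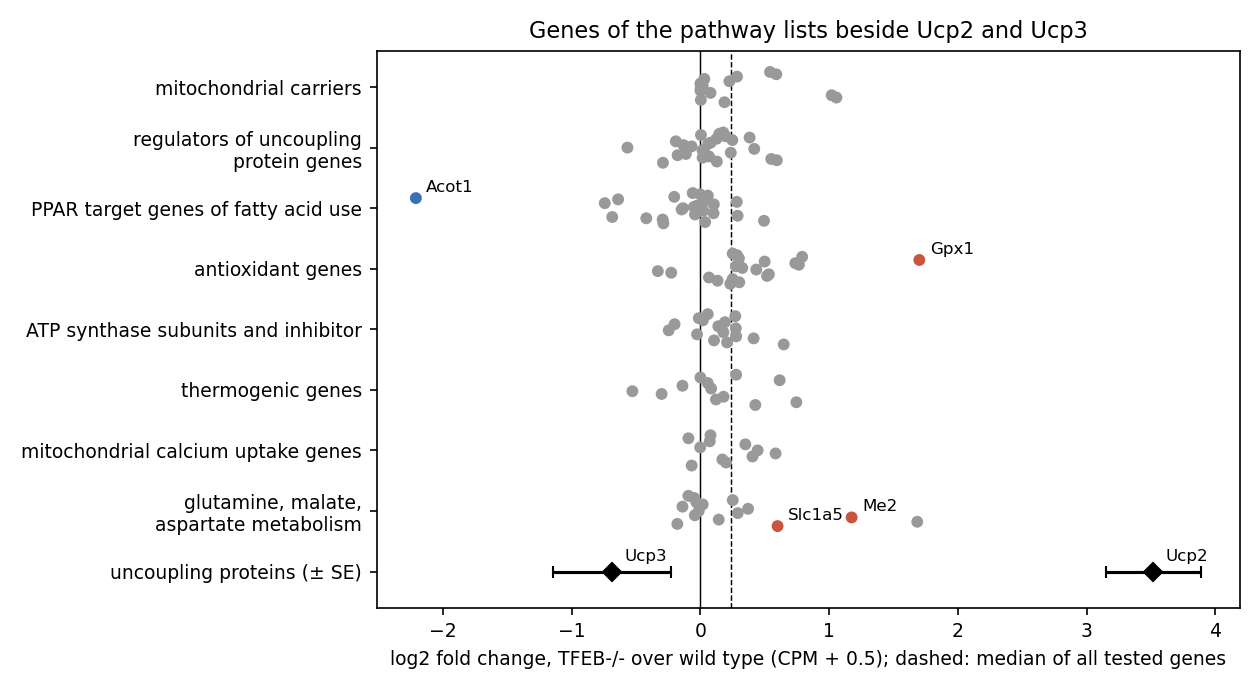
Log2 fold change (TFEB-/- over wild type, horizontal axis) of each tested gene of 8 pathway lists, 1 row a list, with genes called higher in red, called lower in blue and the rest in grey, beside Ucp2 and Ucp3 with SE (black diamonds). The 4 called genes are named, Ucp2 at 3.52 lies to the right of every list gene, and the dashed line is the median of all tested genes.

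Among mitochondrial carriers of the same protein family, none of 14 tested genes was called. Over all tested genes 3.92% were called higher and 0.523% lower. An unadjusted p below 0.05 was found for 1 of the 14, where 23.3% of all tested genes had one. The median log2 fold change of the carriers was 0.13, against 0.24 over all tested genes. The closest relatives were scarce: Slc25a14, also known as UCP5, was at 1 CPM in every library and Slc25a27, also known as UCP4, at 2 CPM in every library. Slc25a30, a further relative, was at 1, 0 and 1 CPM in wild-type libraries and 2, 2 and 1 CPM in TFEB-/-. Slc25a4, the main heart ADP/ATP carrier, was the most abundant at 3552 to 4808 CPM in wild-type libraries and 3690 to 4494 CPM in TFEB-/- (log2 fold change 0.00), and the phosphate carrier Slc25a3 followed (0.08). Both were below 0 with median-ratio scaling. Slc25a10, the dicarboxylate carrier, was at 10, 13 and 12 CPM in wild-type libraries and 22, 14 and 18 CPM in TFEB-/- (0.59, adjusted p = 0.174). It was the only one of the 14 without overlap, where 21.2% of all tested genes had TFEB-/- above without overlap.

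Among 25 transcription regulators of uncoupling protein genes, none was called, with a median log2 fold change of 0.07. Over all tested genes 3.92% were called higher and 0.523% lower. An unadjusted p below 0.05 was found for 3 of the 25, where 23.3% of all tested genes had one. The PPAR receptors overlapped between genotypes. Ppara, the main fatty acid receptor of heart, was at 13, 2 and 5 CPM in wild-type libraries and 8, 4 and 5 CPM in TFEB-/- (0.06, below 0 under 3 scalings). Ppard was at 38, 38 and 29 CPM and at 31, 33 and 31 CPM (-0.13), and Pparg at 5, 7 and 5 CPM and at 3, 7 and 7 CPM (-0.07). Their coactivator Ppargc1a, known for driving mitochondrial biogenesis, was at 29, 41 and 27 CPM in wild-type libraries and 20, 21 and 23 CPM in TFEB-/-. The groups did not overlap, and its log2 fold change of -0.57 was not called as deposited (adjusted p = 0.158) but was with median-ratio scaling (-0.80, adjusted p = 0.0457). Srebf1, Srebf2 and Foxo3 went the other way without overlap. Srebf1 was at 20, 25 and 24 CPM in wild-type libraries and 39, 34 and 29 CPM in TFEB-/- (0.55). Srebf2 and Foxo3 had 0.59 and 0.38, and these genes were not called on either scale. Of all tested genes, 21.2% had TFEB-/- above without overlap and 2.28% below. The most abundant members, the estrogen-related receptor Esrra and the RNA-binding protein Hnrnpk, had 0.18 and 0.13, and both were below 0 with median-ratio scaling.

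PPAR target genes of fatty acid use, of which Ucp3 is known as one, had a median log2 fold change of -0.04. Of 25 tested members 0 were called higher and 1 lower, where 3.92% of all tested genes were called higher and 0.523% lower. An unadjusted p below 0.05 was found for 7 of the 25, where 23.3% of all tested genes had one. That share joins both directions, while all of the 7 but Plin2 were lower in TFEB-/-. With median-ratio scaling 5 members were called lower, where 200 of the 12437 tested genes were. Acot1, a thioesterase that releases fatty acids from CoA, fell from 11, 9 and 8 CPM in wild type to 1, 2 and 2 CPM in TFEB-/- (-2.21 ± 0.25 SE, limma adjusted p = 0.0182). The call of Acot1 was lost without any 1 wild-type library and without TFEB-/- 3, at adjusted p from 0.0549 to 0.0770. Its mitochondrial relative Acot2 was at 57, 52 and 59 CPM and at 30, 38 and 40 CPM (-0.64, adjusted p = 0.0702). Acot1 and Acot2 are near-identical neighbours, so reads may be split between them.

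Besides Acot1, 5 members of the list lay lower in every TFEB-/- library without passing the test as deposited, Acot2 and 4 genes of fatty acid uptake and use, and 1 member, Plin2, lay higher in every TFEB-/- library. Lpl, the lipase that frees fatty acids from lipoproteins, was at 2791, 2175 and 1934 CPM in wild-type libraries and 1405, 1365 and 1473 CPM in TFEB-/- (-0.68, adjusted p = 0.0823). The fatty acid carrier Cd36 was at 813, 760 and 751 CPM and at 357, 583 and 475 CPM (-0.74, adjusted p = 0.111). Plin5, a coat protein of lipid droplets, was at 130, 134 and 112 CPM and at 99, 103 and 105 CPM (-0.29, adjusted p = 0.139). Mlycd, which removes the malonyl-CoA that blocks fatty acid import into mitochondria, was at 112, 109 and 98 CPM and at 73, 81 and 84 CPM (-0.42, adjusted p = 0.0698). Groups did not overlap for these 4 genes and Acot2, where 2.28% of all tested genes had TFEB-/- below without overlap. With median-ratio scaling Lpl, Acot2, Plin5 and Mlycd were called and Cd36 was not (adjusted p = 0.0509), while without mitochondrial transcripts Cd36 was called as well (adjusted p = 0.0481). Plin2, another coat protein of lipid droplets, was at 45, 38 and 37 CPM in wild-type libraries and 57, 55 and 57 CPM in TFEB-/- (0.49, adjusted p = 0.0570). The remaining tested members overlapped between genotypes. Among them Fabp3, the fatty acid binding protein of muscle, had -0.02, Cpt1b, the muscle gate of fatty acid import, -0.03, and Pdk4, the kinase that shuts pyruvate oxidation, -0.29. Fgf21 and Cyp4a14 were listed at 0.

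Antioxidant genes, listed because Ucp2 is linked to reactive oxygen species, had 1 of 20 called higher, where 3.92% of all tested genes were. An unadjusted p below 0.05 was found for 9 of the 20, where 23.3% of all tested genes had one. The median log2 fold change of the list was 0.30. Gpx1, the cytosolic glutathione peroxidase, rose from 24, 31 and 22 CPM in wild type to 104, 67 and 84 CPM in TFEB-/- (1.70 ± 0.21 SE, limma adjusted p = 0.0238). All TFEB-/- libraries lay above all wild-type libraries. Leaving out wild-type library 1 or 3, or TFEB-/- library 1 or 3, ended the call of Gpx1, at adjusted p from 0.0602 to 0.106. Gpx4, the peroxidase that protects membrane lipids, was at 468, 566 and 442 CPM and at 727, 628 and 724 CPM (0.50, adjusted p = 0.102). Gsr, which regenerates glutathione, was at 14, 11 and 9 CPM and at 21, 17 and 19 CPM (0.74, adjusted p = 0.103). The 9 genes with an unadjusted p below 0.05 were Gpx1, Gpx4, Gsr, Sod1, Prdx5, Glrx2, Gclm, Hmox1 and Keap1. These 9 of the 20 had TFEB-/- above without overlap, where 21.2% of all tested genes had. Gclm and Hmox1, at 0.79 and 0.77, were not called. Prdx3 and Nqo1 were below 0, at -0.23 and -0.33, with overlapping groups. Sod2, the mitochondrial superoxide dismutase, had 0.07 with overlapping groups, and -0.17 with median-ratio scaling.

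Glutamine, malate and aspartate metabolism, the pathway of the metabolites attributed to Ucp2, had a median log2 fold change of 0.02. Of its 15 genes 2 were called higher and 0 lower, where 3.92% of all tested genes were called higher and 0.523% lower. Me2, the mitochondrial malic enzyme, rose from 5 CPM in each wild-type library to 13, 10 and 13 CPM in TFEB-/- (1.17 ± 0.12 SE, limma adjusted p = 0.0118). The call of Me2 was lost without wild type 2 or wild type 3, at adjusted p of 0.0577 and 0.0619. Slc1a5, a glutamine transporter, rose from 4 CPM in each wild-type library to 6, 6 and 7 CPM (0.60 ± 0.08 SE, limma adjusted p = 0.0238), a step of 2 to 3 rounding units, and lost its call with median-ratio scaling (adjusted p = 0.190), other settings and any 1 wild-type library left out. Pck2, which makes phosphoenolpyruvate in mitochondria, was at 3 CPM in each wild-type library and 16, 7 and 11 CPM in TFEB-/- (1.68, adjusted p = 0.0561), and was called with median-ratio scaling (adjusted p = 0.0154). Pcx, pyruvate carboxylase, was at 40, 38 and 34 CPM and at 37, 29 and 33 CPM (-0.18), and was called lower with median-ratio scaling (-0.42, adjusted p = 0.0409). The abundant malate dehydrogenases Mdh1 and Mdh2 had -0.01 and 0.29.

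Genes of ATP synthesis, heat production and mitochondrial calcium uptake gave no call. Over all tested genes 3.92% were called higher and 0.523% lower, so few calls would arise in lists this short. None of 16 tested ATP synthase genes was called (median log2 fold change 0.16), with 0.27 for Atp5b and 0.06 for Atp5a1, the beta and alpha subunits. None of 12 tested thermogenic genes was called (median 0.10), with 0.06 for the mitochondrial creatine kinase Ckmt2 and -0.14 for Cox7a1, a muscle subunit of complex IV. Elovl3, Adrb3 and Bmp8b, which like Ucp1 are typical of brown fat, were listed at 0 in all libraries. Other genes of brown fat were detected: Cidea, a lipid droplet protein, was at 21, 23 and 20 CPM in wild-type libraries and 28, 31 and 41 CPM in TFEB-/- (0.62, adjusted p = 0.113). Its groups did not overlap, where 21.2% of all tested genes had TFEB-/- above without overlap. Cox8b, a subunit of complex IV also found in heart, was at 389 to 565 CPM and 456 to 505 CPM (0.08, below 0 with median-ratio scaling). None of 11 tested calcium uptake genes was called (median 0.17), with 0.17 for Vdac1 and 0.20 for Vdac2, the outer membrane channels. Atp5a1, Ckmt2, Vdac1 and Vdac2 were below 0 with median-ratio scaling. At an unadjusted p below 0.05 there were 3, 1 and 1 genes in these lists, where 23.3% of all tested genes had one.

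Since Ucp2 is expressed in immune and other cell types, their markers were measured in the same libraries. The summed level of 15 macrophage markers was 23, 25 and 33 CPM in wild-type libraries 1 to 3 and 49, 57 and 46 CPM in TFEB-/- libraries 1 to 3, without overlap. Of these, 13 were above 0 and 11 were tested, while Ptprc, the common leukocyte antigen, and Aif1 were listed at 0. The tested macrophage markers had a median log2 fold change of 0.61, and 1 was called higher, where 3.92% of all tested genes were. The called gene, Tyrobp, a signalling adaptor, was at 0 CPM in each wild-type library and 1 CPM in each TFEB-/- library, a single rounding step. Lyz2, the lysozyme of myeloid cells, led the sum with 6, 7 and 9 CPM in wild-type libraries and 14, 20 and 16 CPM in TFEB-/- (1.13, adjusted p = 0.0544). All 8 neutrophil markers and 11 of 12 lymphocyte markers were listed at 0, and Cd3e, the remaining one, was at 2, 0 and 2 CPM in wild-type libraries and listed at 0 in TFEB-/-. The part of macrophages in the Ucp2 level was not tested.

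Markers of vessel, connective tissue, fat and red blood cells were measured in the same way. The sum of 11 endothelial markers, led by Fabp4, ran from 500 to 589 CPM in wild-type libraries and 441 to 549 CPM in TFEB-/- with none called as deposited. With median-ratio scaling 1 was called lower, Cldn5, a tight junction protein at 19, 14 and 16 CPM in wild-type libraries and 12, 11 and 11 CPM in TFEB-/- (adjusted p = 0.0210). Fibroblast markers, led by Dcn, summed to 102 to 125 CPM and 117 to 157 CPM, and Pdgfra, at 2 CPM in each wild-type library and 3 CPM in each TFEB-/- library, was called higher, a call lost with median-ratio scaling. Smooth muscle and pericyte markers, led by the potassium channel subunit Abcc9, summed to 357 to 448 CPM and 525 to 544 CPM, without overlap and with none of 8 called. Acta2, smooth muscle actin, was at 66, 118 and 70 CPM in wild-type libraries and 161, 233 and 185 CPM in TFEB-/- (1.22, adjusted p = 0.0876), and without it the sums overlapped, at 382, 272 and 287 CPM and at 364, 311 and 350 CPM. Abcc9 was the largest part of the sums without Acta2, at 203, 125 and 135 CPM in wild-type libraries and 247, 172 and 197 CPM in TFEB-/-. Those sums thus rest largely on 1 gene. The median log2 fold change of the smooth muscle and pericyte list was -0.03. Adipocyte markers summed to 24 to 33 CPM and 23 to 35 CPM, with Plin1, Lep and Retn listed at 0. Nearly all of this sum was Lipe, at 26, 32 and 24 CPM in wild-type libraries and 22, 20 and 31 CPM in TFEB-/-. No other adipocyte marker passed 2 CPM, so the sum says little about adipocytes beyond Lipe. Erythroid markers, led by Hba-a1, summed to 5 to 35 CPM and 6 to 10 CPM. The part of these cells in the levels of Ucp2 and Ucp3 was not tested.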

How the data were processed

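Poly(A) RNA of 6 mouse cardiomyocyte libraries (400 ng of total RNA each, TruSeq Stranded mRNA, pairs of 75 bases) was sequenced, per the labels' protocols. The deposited table gives a score per gene and library: whole numbers taken, from the table's name, as kallisto CPM rounded by the authors. The submitters' processing notes name kallisto among other tools and the build GRCm38, with no versions. Scaling by length is not stated, and the reads behind each value are unknown, so no counting interval can be given. Rounding limits a value to 0.5 CPM on either side.

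Of 46517 entries, 26 names turned into dates were restored through their IDs and 303 missing names were replaced by IDs. Values sharing a symbol were summed. Positions and transcripts came from GENCODE M21, where 46005 IDs were found, and promoters from RefSeq. Genes reaching 1 CPM in 3 or more libraries (12437) were fitted with limma 3.58.1 (R 4.3.3) on log2(CPM + 0.5), with no term but genotype and a trend in the moderated variance. Two-sided p-values were adjusted (Benjamini-Hochberg) across these genes, and an adjusted p below 0.05 counted as called. The added 0.5 CPM understates changes of low genes. Of 552 calls, 164 had no spread within either group, as rounded low values allow. Libraries of a pair held the same value in at most 2.43% of genes with a mean of 50 CPM or more, so none was taken as deposited more than once.

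Members and lists were chosen with earlier results of these data known. Named genes are the members and Tfeb, the called members of each pathway list (up to 4 a direction) and its 2 most abundant, the most abundant and the called of each marker list, protein-coding neighbours within 500 kb with a mean of at least 5 CPM, and the 5 genes most like Ucp2 and Ucp3 each, plus 22 list genes named after their values were seen. Further regulators and antioxidant genes were mentioned for their direction after their values were seen. They are not counted among the named genes whose refits are summed below. The 15 alternatives were other pseudocounts, filters and scalings, robust hyperparameters, a replicate block and leaving out each library.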

Additional observations from a re-analysis of the deposited data

How the results depend on the processing

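The log2 fold change of Ucp2 stayed within its spread between replicates in all 15 alternatives, and that of Ucp3 kept its sign and stayed uncalled in all 15. The numbers of called genes depended more on the processing. Against 487 higher genes, robust hyperparameters gave 780 and leaving out 1 library 248 to 516. Against 65 lower genes, median-ratio scaling gave 200, quantile normalization 172 and CPM without mitochondrial transcripts 188. With the replicate number as a block (replicate block), 159 genes were called higher and 26 lower, and 0 and 0 of the list genes. Same-numbered libraries deviated together with r = 0.15, -0.072 and 0.19 for numbers 1 to 3, which does not pair them. For list genes, 3 higher and 1 lower as reported, a filter of 5 CPM gave 7 and 4, robust hyperparameters 7 and 4, median-ratio scaling 7 lower, quantile normalization 5 lower and CPM without mitochondrial transcripts 8 lower, and leaving out 1 library 0 to 6 higher and 0 to 1 lower. The Ucp2 share of 39.3% in wild type and 91.7% in TFEB-/- became 28.6% and 87.2% per kb of the longest transcript or the longest coding transcript, and 64.0% and 96.8% per kb of the median transcript.

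Over 1090 refits of 73 other named genes, 902 kept their direction and their side of the threshold, 74 lost a call, 41 gained one and 73 changed sign, all of the last in genes that were not called. Median-ratio scaling and CPM without mitochondrial transcripts each multiply all genes of a library by 1 factor. This moves the log2 fold changes of all but low genes by a like amount, and the changed signs under these settings follow from that construction. Under the other settings the cause was not tested. The log2 fold changes of Slc25a4, Slc25a3, Esrra, Hnrnpk, Sod2, Atp5a1, Ckmt2, Vdac1, Vdac2, Rnf169, Ppme1, Mrpl48, Rab6a, Fam168a, Ppara and Cox8b became -0.24, -0.16, -0.061, -0.11, -0.17, -0.18, -0.18, -0.069, -0.040, -0.041, -0.028, -0.12, -0.23, -0.0014, -0.16 and -0.16 with median-ratio scaling and -0.11, -0.18, -0.059, -0.12, -0.14, -0.099, -0.18, -0.026, -0.042, -0.084, -0.033, -0.11, -0.23, -0.029, -0.13 and -0.090 with quantile normalization. Without mitochondrial transcripts those of the same genes other than Fam168a became -0.22, -0.15, -0.047, -0.10, -0.16, -0.17, -0.17, -0.055, -0.026, -0.029, -0.014, -0.10, -0.22, -0.14 and -0.14. Leaving out 1 library gave -0.088 to 0.0084 for Fabp3, -0.14 to 0.079 for Mdh1, -1.38 to 0.39 for Hba-a1, -0.093 to 0.049 for Cpt1b, -0.53 to 0.68 for Ppara, -0.25 to 0.30 for Pparg, -0.11 to 0.11 for Slc25a4, -0.0050 to 0.15 for Slc25a3, -0.012 to 0.12 for Sod2, -0.079 to 0.13 for Atp5a1, -0.069 to 0.15 for Ckmt2, -0.050 to 0.25 for Mrpl48, -0.089 to 0.087 for Rab6a, -0.038 to 0.23 for Cox8b, -0.28 to 0.042 for Fabp4 and -0.28 to 0.018 for Ap3m1.

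Rounding to 1 CPM and 3 libraries a group limit what can be told: a gene of a few CPM moves in large steps, and depth is unknown.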
